A study of Mus musculus with 6 samples.

Results

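A set of 8 broadly expressed miRNAs that are often used or proposed as reference miRNAs in serum were followed through 6 small RNA libraries of mouse serum. The members were taken by name from the deposited table of mature miRNAs: miR-191-5p, miR-423-5p, miR-423-3p, miR-484, miR-320-3p, miR-22-3p, miR-186-5p and miR-140-3p. All 8 members were listed, among 1281 entries, 507 of them with at least 1 read, and all 8 had at least 260 reads in every library. Serum came from male mice aged 10 to 12 weeks after a sciatic nerve allograft, in which a donor nerve graft of 1 cm is placed, turned end to end, into a nerve gap of 0.5 cm. The groups were 1 mg/kg per day of FK506, given under the skin and sampled at days 3, 7 and 14, and an allograft without the drug, sampled likewise. FK506, or tacrolimus, inhibits calcineurin and so holds back T cells. Every group, the untreated ones included, had received an allograft, so the comparison is between grafted animals with and without the drug, with no ungrafted serum. Donors were labelled Balb/c, and the labels name the recipients as C57BL/6 in one place and as Balb/c in another. Each group was 1 library. The labels give 3 animals per group and day, but the sources used here do not say whether a library holds 1 animal or a pool.

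A reference miRNA is one whose amount is taken as constant, so that other miRNAs can be expressed relative to it. Serum has no agreed reference, because circulating miRNAs come from many sources, among them red cells, platelets, endothelium, liver and muscle, and because the amount of RNA varies between draws. A usable reference has to be abundant enough to be counted well and has to vary less than the miRNAs it is used to scale, and its level must not move with the treatment under study.

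The mature sequences are shown because members from 1 hairpin or with near-identical copies could share reads. RefSeq (GRCm38.p6) held 7 of the 8, all but miR-320-3p. They are written 5′ to 3′, with the seed (bases 2 to 8) in capitals.
miR-191-5p: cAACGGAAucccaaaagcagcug
miR-423-5p: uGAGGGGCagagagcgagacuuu
miR-423-3p: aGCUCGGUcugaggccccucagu
miR-484: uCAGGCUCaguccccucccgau
miR-22-3p: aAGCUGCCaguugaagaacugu
miR-186-5p: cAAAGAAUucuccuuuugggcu
miR-140-3p: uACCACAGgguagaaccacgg
No seed was shared between these 7 members. In the RefSeq table the seed of miR-423-5p recurred in 1 other mature miRNA, miR-6921-5p, and that of miR-140-3p in 1 other, miR-497b, and the deposited table held 0 reads of either. The nearest other mature sequence was 3 edits away for miR-22-3p (miR-3966, with 0 reads in all 6 libraries) and 6 to 8 edits away for the other 6. The share of G and C was lowest in miR-186-5p, at 40.9%, and miR-22-3p, at 45.5%. It was 52.2% in miR-191-5p, 56.5% in miR-423-5p, 57.1% in miR-140-3p, 63.6% in miR-484 and 65.2% in miR-423-3p.

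The genes of the 7 members found in RefSeq lie apart, except that miR-423-5p and miR-423-3p are cut from the same hairpin. Mir423 is annotated on the minus strand of chromosome 11 (chr11:77078064-77078172), within an intron of Nsrp1. Its hairpin is shown with both mature arms in capitals, the 5′ arm at bases 29 to 51 and the 3′ arm at bases 65 to 87.
Mir423: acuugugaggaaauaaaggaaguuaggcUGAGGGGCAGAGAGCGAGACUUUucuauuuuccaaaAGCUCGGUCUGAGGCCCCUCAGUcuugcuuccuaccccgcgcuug
In GENCODE M21 on the same genome build, Mir186 (chr3:157544279-157544349) lay in an intron of Zranb2. Mir22 (chr11:75463716-75463810) overlapped exons of its noncoding host Mir22hg and of Tlcd2, Mir140 (chr8:107551244-107551313) an exon of Wwp2, and Mir191 (chr9:108568319-108568392) an exon of the long noncoding RNA 4833445I07Rik. Mir484 (chr16:14159626-14159692) overlapped an exon of Marf1, which runs on the opposite strand.

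The scale on which a level is read matters in these libraries. Totals ran from 4897727 to 5806228 counts, but the red cell miRNA miR-486-5p and miR-3107-5p, whose reads cannot be told apart, took 93.8% to 98.0% of them. Levels are therefore given first as a share of the 103058 to 359061 reads outside that pair, and then as counts scaled by TMM, a method that sets library sizes so that most miRNAs keep their ratio. Summed over all 8 members, the share outside the pair was 15.4%, 19.4% and 12.1% with FK506 (days 3, 7 and 14) and 14.7%, 8.14% and 19.7% without. The untreated day 7 library stood apart. In it miR-181a-5p alone took 31.8% of the reads outside the pair, against 2.10% to 4.98% in the other 5 libraries. A list of 7 neuron and glia miRNAs summed to 3.24% there with 0 of 7 at zero, against 0.0618% to 0.274% elsewhere with 4 to 6 of 7 at zero. Of the other cell type lists, the 3 red cell miRNAs outside the pair summed to 0.209% to 1.16%. The 4 platelet and myeloid miRNAs summed to 0.163% to 1.28%. The 2 liver miRNAs summed to 0.559% to 3.52%, from 837 to 8363 reads of miR-192-5p and 0 to 60 of miR-122-5p. These 3 sums were lowest in untreated day 7 serum. The lymphocyte miRNA miR-150-5p was at 5.29%, 3.81% and 2.52% with FK506 (days 3, 7 and 14) and 0.592%, 0.143% and 0.393% without. The part of these lists in the members' values was not tested. In serum, fewer cells releasing a miRNA and less RNA released per cell cannot be told apart.

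The most abundant member was miR-191-5p, a miRNA of blood and many other tissues that is made from the same transcript as miR-425. It had 5614, 7727 and 14835 reads with FK506, in the order of days 3, 7 and 14, and 9978, 4383 and 9325 without, and the same order of days holds for all values below. As a share of reads outside the pair these were 5.37%, 7.50% and 4.13% with FK506, and 6.23%, 1.47% and 5.89% without. In 5 of the 6 libraries miR-191-5p thus lay within 4.13% to 7.50%, and the untreated day 7 library was low. After TMM scaling it was at 1614, 2057 and 1228 scaled CPM (counts per 1e+06 of the scaled library size) with FK506 and 1834, 848 and 2097 without, so the same library was again the lowest, by a smaller margin.

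Next came miR-22-3p, a miRNA abundant in heart and skeletal muscle and also found in blood. Its reads were 2625, 4151 and 15562 with FK506 and 5601, 4761 and 10667 without, or shares of 2.51%, 4.03% and 4.33% against 3.50%, 1.60% and 6.73%. The level was highest in untreated serum at day 14 and, as a share, lowest in untreated serum at day 7. On the TMM scale it was at 755, 1105 and 1288 scaled CPM with FK506 and 1029, 921 and 2399 without, with FK506 day 3 the lowest. The treatment groups overlapped on both scales.

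The third abundant member was miR-423-5p, which has been proposed as a marker of heart failure in human plasma. With FK506 it had 5478, 4663 and 4241 reads, or 5.24%, 4.52% and 1.18% of the reads outside the pair. Without FK506 it had 4228, 10646 and 6672 reads, or 2.64%, 3.57% and 4.21%. Its share was therefore lower at each later day with FK506 and higher at each later day without, with 1 library behind each point. The TMM-scaled values were 1575, 1241 and 351 scaled CPM with FK506 and 777, 2060 and 1501 without.

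From the other side of the same hairpin, miR-423-3p was counted 4.44 to 17.2 times less often than miR-423-5p. Its reads were 398, 706 and 955 with FK506 and 297, 879 and 387 without, or 0.381%, 0.685% and 0.266% against 0.185%, 0.295% and 0.244%. Both groups had their highest share at day 7. The ratio of miR-423-5p to miR-423-3p within a library needs no scaling, and it was 13.8, 6.60 and 4.44 with FK506, with exact 95% intervals of 12.4 to 15.3, 6.10 to 7.16 and 4.14 to 4.77. Without the drug it was 14.2, 12.1 and 17.2, with intervals of 12.7 to 16.1, 11.3 to 13.0 and 15.6 to 19.2. At days 7 and 14 the FK506 and untreated intervals were apart, and at day 3 they overlapped. These intervals cover counting error only and say nothing of the spread between animals.

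The other 4 members were scarcer. For miR-140-3p, a product of the hairpin best known from cartilage, the shares were 0.726%, 1.19% and 1.04% with FK506 and 1.05%, 0.400% and 1.47% without, from 759 to 3746 reads. Those of miR-186-5p were 0.330%, 0.521% and 0.644% with FK506 and 0.576%, 0.234% and 0.437% without, from 345 to 2313 reads. As shares both were lowest in untreated day 7 serum, as miR-22-3p and miR-191-5p were. On the TMM scale both were lowest in FK506 day 3 serum. There miR-140-3p was at 218 scaled CPM, against 231 in untreated day 7 serum, and miR-186-5p at 99.2 against 135.

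Unlike these, miR-320-3p did not have a low share in untreated day 7 serum, and its TMM-scaled value was highest there, at 281 scaled CPM. This miRNA is known to be made without the Drosha step that most hairpins need. It had 0.466%, 0.451% and 0.222% with FK506 and 0.339%, 0.486% and 0.533% without, from 465 to 1450 reads. The lowest of the 6 values, in FK506 day 14 serum, came from the same library that held the lowest share of miR-423-5p.

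Of the 8 members, miR-484 was the only one whose FK506 and untreated libraries did not overlap, on the share scale and on the TMM scale alike. It is known to repress the mitochondrial fission factor Fis1 in mouse heart muscle cells. With FK506 it had 427, 526 and 978 reads, or 0.408%, 0.510% and 0.272%. Without FK506 it had 292, 260 and 357 reads, or 0.182%, 0.0872% and 0.225%. On the TMM scale the gap at day 14 was narrow, at 81.0 scaled CPM with FK506 and 80.3 without. Among the 153 miRNAs kept by the filter on low counts, 22.9% did not overlap as shares and 23.5% on the TMM scale, so 1 of 8 members is not above the background.

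**Figure D1:**
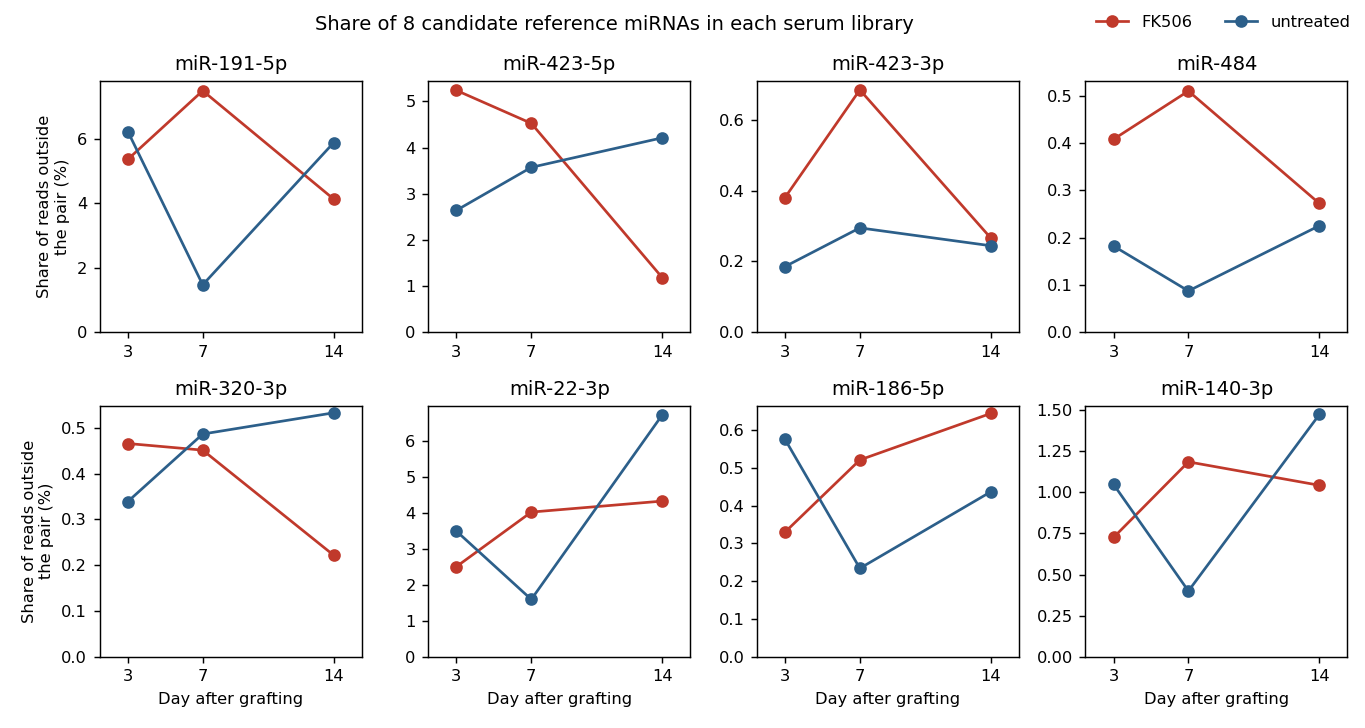
Share of reads outside miR-486-5p and miR-3107-5p (percent, linear axis from 0) against day for each of the 8 members, with FK506 in red and untreated in blue, 1 library per point and no error bars. In untreated serum at day 7 miR-191-5p (1.47%), miR-22-3p (1.60%), miR-186-5p (0.234%), miR-140-3p (0.400%) and miR-484 (0.0872%) are at their lowest, and in FK506 serum at day 14 miR-423-5p (1.18%) and miR-320-3p (0.222%) are.

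Stability was measured as the SD of the log2 level over the 6 libraries, which holds treatment, day and library differences together. Counting error alone would give SDs of 0.02 to 0.07 for these members, so the observed SDs of 0.33 to 0.93 are far above it. As a share of reads outside the pair, miR-320-3p varied least, with an SD of 0.47 and a highest value 2.40 times the lowest. It was followed by miR-186-5p (0.55), miR-423-3p (0.65), miR-140-3p (0.67) and miR-22-3p (0.71). The widest spread was in miR-423-5p (0.79), miR-191-5p (0.85) and miR-484, whose SD was 0.91 and whose highest share was 5.85 times the lowest.

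After TMM scaling the order changed. The least variable member was now miR-186-5p, with an SD of 0.33 and a highest value 1.93 times the lowest, followed by miR-140-3p (0.45), miR-191-5p (0.51) and miR-22-3p (0.57). Then came miR-484 (0.60), miR-423-3p (0.68), miR-320-3p (0.73) and miR-423-5p, with an SD of 0.93 and a highest value 5.87 times the lowest. The ends of the order thus depended on the scale: miR-320-3p was first as a share and seventh of 8 after TMM scaling, and only miR-186-5p was among the first 3 on both scales.

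As a group the members were close to the table. Their median SD was 0.69 as a share, beside 0.78 for the 72 miRNAs outside the pair with at least 50 reads in every library, and 0.59 after TMM scaling, beside 0.63. Within those 72, the members held places 8 to 49 as shares and 3 to 57 after TMM scaling. The SDs of miR-186-5p placed it 12th and 3rd of 72. Those of miR-191-5p placed it 43rd and 19th.

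One library set much of the order. Without the untreated day 7 library the share of miR-191-5p had an SD of 0.32 in place of 0.85, which moved it from seventh to first of 8. The SD of miR-140-3p was then 0.37 in place of 0.67, and that of miR-484 was 0.61 in place of 0.91. Without the FK506 day 14 library the share of miR-423-5p had an SD of 0.38 in place of 0.79, and that of miR-320-3p 0.25 in place of 0.47. Without FK506 day 7, miR-423-3p came to 0.38 in place of 0.65 and was first. On the TMM scale, leaving out untreated day 7 brought miR-191-5p to 0.32 in place of 0.51. Without untreated day 14 the TMM-scaled SD of miR-22-3p was 0.29 in place of 0.57, and that of miR-140-3p, then first, 0.27 in place of 0.45. Without FK506 day 3 the TMM-scaled SD of miR-186-5p was 0.20 in place of 0.33, and without FK506 day 14 that of miR-423-5p was 0.52 in place of 0.93.

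**Figure D2:**
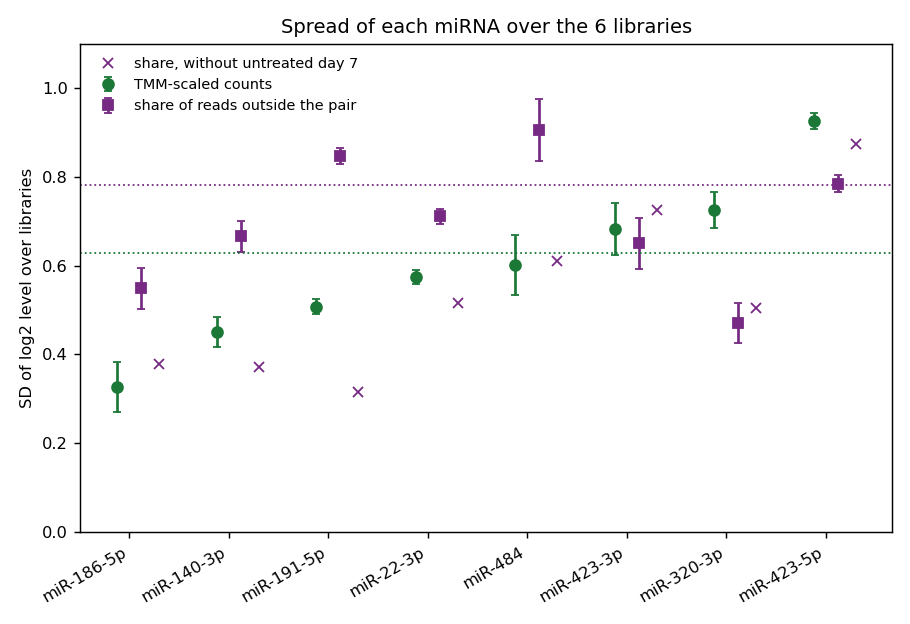
SD of the log2 level over the 6 libraries for each member, after TMM scaling (green circles) and as a share of reads outside the pair (purple squares), with bars for the 95% counting error, and crosses for the share without the untreated day 7 library. Dotted lines are the medians of 72 miRNAs, 0.63 on the TMM scale and 0.78 as a share, and miR-191-5p drops from 0.85 to 0.32 without untreated day 7.

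How the variation of each member divides between treatment, day and the rest is a description of 6 values. For miR-484, 64.5% of the sum of squares of its log2 share, and 66.4% on the TMM scale, lay between FK506 and untreated serum. For miR-423-3p 74.7% lay between days on the TMM scale and 8.21% between treatments, while as a share 39.3% lay between days and 44.4% between treatments. For miR-22-3p the part between days was 67.5% on the TMM scale and 52.4% as a share. In miR-191-5p 86.5% on the TMM scale and 68.9% as a share lay in neither.

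Ratios between members within a library are free of any scaling. The steadiest of the 28 ratios was miR-22-3p to miR-140-3p, which ran only from 3.33 to 4.57 over the 6 libraries, an SD of 0.19 on the log2 scale. It was 3.46, 3.40 and 4.15 with FK506 and 3.33, 3.99 and 4.57 without. Next was miR-423-5p to miR-320-3p, with an SD of 0.38 and ratios of 11.2, 10.0 and 5.33 with FK506 and 7.79, 7.34 and 7.91 without. The least steady was miR-423-5p to miR-186-5p, which ran from 1.83 in FK506 day 14 serum to 15.9 in FK506 day 3 serum (SD 1.19).

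Over all 6 libraries the ratios therefore put the members into loose neighbourhoods. The 6 ratios among miR-22-3p, miR-140-3p, miR-186-5p and miR-191-5p had SDs of 0.19 to 0.60. The ratios of each of these to miR-423-5p had SDs of 1.07 to 1.19. The edge of this group was not sharp, since the ratio of miR-191-5p to miR-484 had an SD of 0.54. Those of miR-140-3p, miR-186-5p and miR-22-3p to miR-484 had SDs of 0.74 to 0.86. The 2 products of the Mir423 hairpin were not each other's nearest member: their ratio had an SD of 0.76, against 0.38 for miR-423-5p with miR-320-3p and 0.68 for miR-423-3p with miR-320-3p. These neighbourhoods rest in part on 1 library. Without untreated day 7, miR-191-5p to miR-320-3p had an SD of 0.37 in place of 0.99. That of miR-423-3p to miR-484 was 0.21 in place of 0.71, and that of miR-191-5p to miR-423-5p 0.69 in place of 1.07. For miR-191-5p to miR-22-3p it stayed near, at 0.60 in place of 0.59, and for the Mir423 products it was 0.84 in place of 0.76. For the ratio of miR-191-5p to miR-22-3p, the 2 most abundant members, the values were 2.14, 1.86 and 0.953 with FK506 and 1.78, 0.921 and 0.874 without, so it was lower at day 14 than at day 3 in both groups.

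The geNorm measure M, the mean SD of a member's log2 ratios to the other 7, was lowest for miR-140-3p at 0.66. It was 0.74 for miR-191-5p, 0.74 for miR-22-3p, 0.75 for miR-186-5p, 0.83 for miR-484, 0.83 for miR-320-3p, 0.85 for miR-423-3p and 0.96 for miR-423-5p. Dropping the member with the highest M each time removed miR-423-5p, miR-320-3p, miR-423-3p, miR-484, miR-191-5p and miR-186-5p in that order, and left miR-22-3p with miR-140-3p. M depends on which members are in the set, and 4 of the 8 had ratios to each other with SDs of at most 0.60. Without the untreated day 7 library, miR-191-5p had the lowest M, at 0.55.

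**Figure D3:**
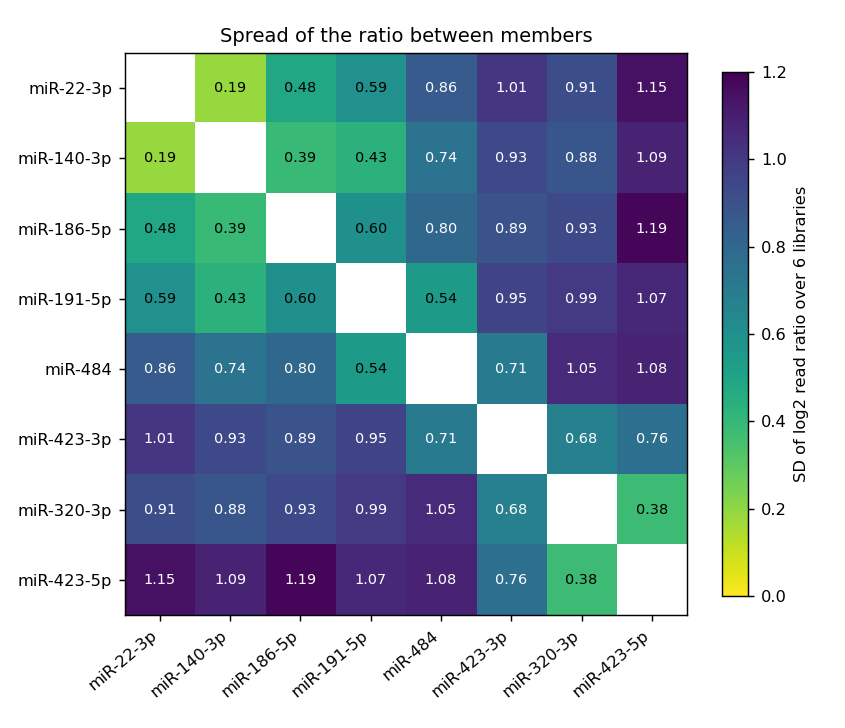
SD over the 6 libraries of the log2 ratio of reads for each pair of members, from 0 (yellow) to 1.2 (dark). The block of miR-22-3p, miR-140-3p, miR-186-5p and miR-191-5p holds SDs of 0.19 to 0.60, miR-423-5p with miR-320-3p has 0.38, and miR-423-5p with miR-186-5p has 1.19.

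The comparison of FK506 with untreated serum asked whether a candidate reference moved with the drug. With 1 library per group, a difference at a single day has no replicate check and no p-value. A miRNA passed the size rule when the log2 ratio of TMM-scaled counts, with a prior count of 2, was at least 1 or at most -1 and 1 of the 2 libraries had at least 50 reads. At day 3, 3 of 8 members were higher in FK506 serum and 0 lower. For miR-484 the fold was 2.29 (exact 95% counting interval 1.97 to 2.66), for miR-423-3p 2.10 (1.80 to 2.44) and for miR-423-5p 2.03 (1.95 to 2.11). Their log2 ratios were 1.19, 1.06 and 1.02, just past the rule, and with median-of-ratios factors 0 members passed, where 13.1% of all miRNAs were higher, 15.2% lower and 28.3% either. For miR-423-5p the rule was passed with TMM factors only, and its ratios to miR-484 and miR-423-3p were lower with FK506 at day 3 (12.8 against 14.5 and 13.8 against 14.2). The counting intervals of the ratio to miR-423-3p overlapped. The other 5 members had log2 ratios from -0.77 (miR-186-5p) to 0.49 (miR-320-3p). The background at day 3 was 21.2% higher and 11.1% lower of 99 miRNAs, 32.3% in all, beside 37.5% of the members.

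At day 7, 2 members were higher in FK506 serum and 1 was lower. The 2 were miR-484, at 2.78-fold (2.39 to 3.24), and miR-191-5p, at 2.43-fold (2.34 to 2.52). The lower one was miR-320-3p, 2.27-fold lower (2.04 to 2.52). Its log2 ratio fell short of the rule with TMM and no filter on low counts (-0.97) and scaled to reads outside the pair (-0.11). It passed scaled to the library total (-1.69), with median-of-ratios factors (-1.18) and scaled to the geometric mean of the members (-1.41). Between these members, miR-140-3p had a log2 ratio of 0.49, miR-22-3p of 0.26, miR-423-3p of 0.14, miR-186-5p of 0.08 and miR-423-5p of -0.73. Of 129 miRNAs compared 19.4% were higher and 46.5% lower, 65.9% in all, beside 37.5% of the members. Scaled to reads outside the pair, 6 of 8 members were higher at day 7 and 0 lower, where 34.9% of all miRNAs were higher and 35.7% lower, 70.5% in all. That scale moved the median of all miRNAs at day 7 by 1.07, and the untreated library of this pair is the one that held the most miR-181a-5p.

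At day 14, 2 members were lower in FK506 serum and 0 higher. These were miR-423-5p, 4.27-fold lower (4.11 to 4.44), and miR-320-3p, 2.88-fold lower (2.61 to 3.18). By contrast miR-484 had a log2 ratio of 0.01, miR-423-3p of -0.14 and miR-186-5p of 0.30. For miR-22-3p, miR-191-5p and miR-140-3p the log2 ratios were -0.90, -0.77 and -0.76. The background was 20.8% higher and 15.4% lower of 130 miRNAs, 36.2% in all, beside 25% of the members. The median log2 ratio of the 8 members was 0.15, 0.20 and -0.77 at days 3, 7 and 14, and that of all miRNAs compared was 0.04, -0.74 and 0.01. Scaling to the library total shifted the median over all miRNAs by -0.58 at day 3, -0.51 at day 7 and 1.31 at day 14. On that scale 0 members were higher and 3 lower at day 3, beside 7.07% and 30.3% of all miRNAs (37.4% in all). At day 7, 0 were higher and 2 lower, beside 6.98% and 56.6% (63.6% in all), and at day 14, 3 were higher and 0 lower, beside 64.6% and 2.31% (66.9% in all). Only miR-484 had no log2 ratio below 0 with TMM scaling at any of the 3 days.

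**Figure D4:**
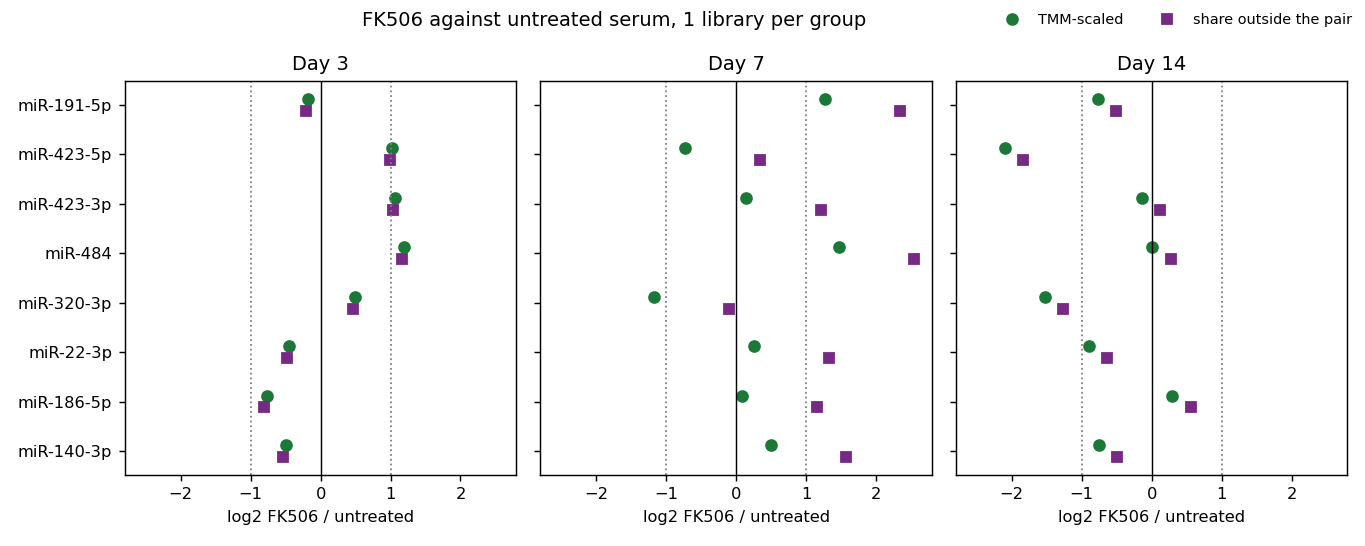
Log2 ratio of FK506 to untreated serum for each member at days 3, 7 and 14, after TMM scaling with a prior count of 2 (green circles) and as a ratio of shares of reads outside the pair (purple squares), 1 library per group, with dotted lines at -1 and 1. The scales differ little at day 3 and widely at day 7, where miR-191-5p is at 1.28 and 2.35.

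Over all 3 days, 0 of 8 members passed edgeR's quasi-likelihood test, in which day and treatment were terms, at an adjusted p of 0.05. The background was 0% of 153 miRNAs, with 17 of the 153 and 0 of the members under an unadjusted 0.05. The widest estimates were for miR-484, with a log2 change of 0.90 ± 0.63 (SE, 95% interval -0.45 to 2.25, higher in 3 of 3 days, edgeR adjusted p 0.652), and miR-320-3p, with -0.76 ± 0.67 (-2.19 to 0.68, lower in 2 of 3 days, edgeR adjusted p 0.802). For miR-191-5p the log2 change was 0.10 ± 0.69 (-1.39 to 1.58) and for miR-186-5p -0.13 ± 0.61 (-1.44 to 1.18). The intervals of miR-22-3p (-1.73 to 1.01), miR-140-3p (-1.60 to 1.08), miR-423-3p (-0.96 to 1.67) and miR-423-5p (-2.27 to 1.04) were as wide. Every one of the 8 intervals held 0 and also a change of 2-fold in at least 1 direction, so this fit does not show that any member is unaffected by FK506. DESeq2 and limma also called 0 members.

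Between days the same fit called 0 of 8 members and 0% of 153 miRNAs in each of the 3 comparisons. Under an unadjusted 0.05 the day 7 to day 3 comparison held 7 of 153 miRNAs, day 14 to day 3 held 0 and day 14 to day 7 held 11, with 0 members in each. The widest estimates among the members were 1.14 ± 0.75 for miR-423-3p from day 3 to 7, 1.02 ± 0.77 for miR-22-3p from day 3 to 14 and -1.09 ± 0.74 for miR-423-3p from day 7 to 14, on the log2 scale with SE. The edgeR adjusted p-values of these were 0.930, 0.988 and 0.670.

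Used as scalers, the members gave different answers for the rest of the table. Scaled to the geometric mean of all 8, 11 miRNAs were higher and 18 lower in FK506 serum at day 3, 13 higher and 64 lower at day 7, and 51 higher and 12 lower at day 14. With TMM these were 21 and 11, 25 and 60, and 27 and 20. Scaling to 1 member lowers every log2 ratio of a day by that member's own, so these counts restate the members' ratios given above as their effect on the table. At day 3, scaled to miR-186-5p, 46 miRNAs were higher and 0 lower, and scaled to miR-140-3p 37 were higher and 2 lower. Scaled to miR-484 at the same day, 1 was higher and 52 lower, and scaled to miR-423-3p 2 were higher and 49 lower.

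At day 14 the spread between scalers was wider still. Scaled to miR-423-5p, 111 of 130 miRNAs were higher and 1 lower, and scaled to miR-320-3p 86 were higher and 2 lower. Scaled to miR-186-5p, 19 were higher and 36 lower, while miR-191-5p gave 52 and 12, miR-22-3p 54 and 10, miR-140-3p 52 and 12, miR-423-3p 32 and 18, and miR-484 27 and 20. At day 7, where the untreated library stands apart, miR-484 gave 2 higher and 90 lower, miR-191-5p 3 and 89, and miR-320-3p 49 and 46.

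**Figure D5:**
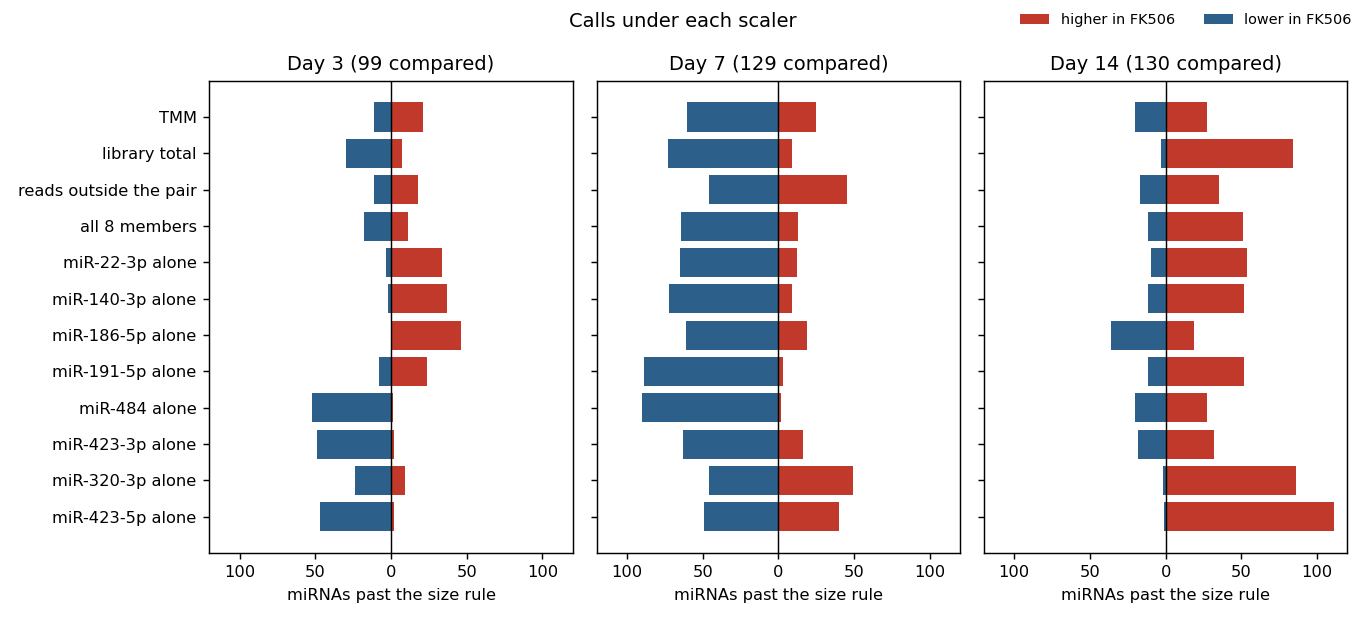
Number of miRNAs past the size rule, higher (red, to the right) or lower (blue, to the left) in FK506 serum at each day, when libraries are scaled by TMM, the library total, reads outside the pair, all 8 members or 1 member alone. At day 3 miR-186-5p gives 46 higher and 0 lower and miR-484 gives 1 higher and 52 lower, and at day 14 miR-423-5p gives 111 higher and 1 lower.

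A comparison list of 20 other miRNAs proposed as references or used in serum quality checks held 15 with at least 50 reads in every library. Their SDs ran from 0.28 (miR-103-3p) to 1.21 (miR-26a-5p) as a share, with a median of 0.82, and from 0.35 (let-7g-5p) to 1.60 (miR-26a-5p) after TMM scaling, with a median of 0.59. As a share 6 of 8 members lay under that median, and after TMM scaling 4 of 8. The widely used reference miR-16-5p, which is abundant in red cells, had an SD of 0.93 as a share and 0.61 after TMM scaling. For miR-103-3p, a metabolic miRNA, the SD was 0.28 as a share and 0.55 after TMM scaling. On both scales let-7g-5p (0.45 and 0.35) and miR-30c-5p (0.48 and 0.39) had SDs below those of at least 7 members.

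The other products of the members' hairpins were scarce. In all 6 libraries together miR-191-3p had 6 reads, miR-22-5p 10, miR-140-5p 45, and miR-320-5p and miR-186-3p 0. From the transcript shared with miR-191, miR-425-5p had 76 to 388 reads, and miR-191-5p was counted 38.7, 64.4 and 38.2 times as often with FK506 and 53.9, 57.7 and 53.6 times as often without.

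By the SD of the log2 ratio over 6 libraries, the nearest companions of each member were picked among 140 other miRNAs with reads in every library. Each is the lowest of 140 SDs, so a low value comes in part from the search. The pattern of miR-140-3p was most like that of miR-378a-3p (0.17), that of miR-320-3p like miR-744-5p (0.22), and that of miR-186-5p like miR-30c-5p (0.23). For miR-484 it was miR-328-3p (0.28), for miR-22-3p miR-30c-5p (0.34), for miR-423-3p miR-221-3p (0.39) and for miR-423-5p miR-744-5p (0.43). The last was farther from miR-423-5p than the member miR-320-3p was (0.38). For miR-191-5p the nearest were miR-664-5p (0.14), which had only 6 to 22 reads, and miR-151-3p (0.25), which had 676 to 1988. With miR-744-5p nearest to both, miR-423-5p and miR-320-3p shared a companion, as miR-22-3p and miR-186-5p did.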

How the data were processed

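Read counts per mature miRNA were deposited by the authors with no normalization. Per the labels' protocols, RNA of 15 to 30 nt was gel-selected, ligated to linkers, barcoded and sequenced with 11 libraries in a lane, and reads were searched against miRBase 20 with Bowtie (named also in the submitters' processing notes) and BLAST. Their versions, and how reads with several matches were handled, are unknown from the sources used here. A read may therefore be counted at more than 1 entry. The counts of miR-486-5p and miR-3107-5p were nearly equal, at 2448326 and 2440098 in FK506 day 3 serum. The library totals, and the part of them in this pair, may thus count the same reads more than once.

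filterByExpr (minimum count 10, treatment as group) kept 153 miRNAs, which were TMM-scaled (R 4.3.3, edgeR 4.0.16) and fitted with edgeR's quasi-likelihood test (day and treatment as terms, 2 residual degrees of freedom, Benjamini-Hochberg over all 153). The test shares information on spread between miRNAs, which brought the degrees of freedom behind the p-values and intervals to 13.1. The SE is the log2 change divided by the square root of F. The fit was tested on simulated counts. DESeq2 1.42.0, limma 3.58.1, other scalings, other filters and leaving out each library were alternatives. Intervals of folds and of read ratios are exact binomial (95%) and cover counting error only, since reads carry no molecular identifiers. Those of the edgeR log2 changes come from the SE and a t quantile (95%), and so from the spread between libraries. The p-values measure only the spread between these single libraries, partly shared between miRNAs. That spread may be technical. Named miRNAs are the 8 members, other products of their hairpins or transcript, the comparison list and the cell type lists. Also named are the 2 most similar miRNAs per member and the 5 most stable of the table. Members, lists and tests were chosen with earlier results of these data known.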

Additional observations from a re-analysis of the deposited data

Results flagged for a closer look

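For miR-423-5p the log2 ratio of FK506 to untreated serum was 1.02 at day 3 and -2.09 at day 14, past the size rule upward on one day and downward on the other. With 1 library per group the difference between days was not tested. The day 3 value passed the rule with TMM factors only. It was 0.41 scaled to the library total, 0.99 scaled to reads outside the pair, 0.81 with median-of-ratios factors, 0.79 scaled to the geometric mean of the members and 0.96 with TMM and no filter on low counts, all 5 short of the rule. The day 14 value was -0.77 scaled to the library total, short of the rule, and -1.36 to -2.04 under the other 4. Relative to single members, miR-423-5p was higher with FK506 at day 3 against 5 of the other 7 members and lower against 2. Its ratio to miR-22-3p was 2.09 with FK506 and 0.755 without, while its ratio to miR-423-3p was 13.8 and 14.2 and its ratio to miR-484 was 12.8 and 14.5. At day 14 it was lower with FK506 against 7 of 7.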

How the results depend on the processing

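No paired analysis was possible because each group is 1 library and the labels carry no replicate numbers, apart from the edgeR fit itself, whose day term compares treatments within day. For FK506 across days, the calls over all miRNAs were 0 with TMM, 3 scaled to reads outside the pair, 1 scaled to the geometric mean of the 8 members, 4 with no filter on low counts, 5 with DESeq2, 1 with limma and 2 with no day term, and 0 to 3 when 1 library was left out; no member was among them in any of these fits. Day 7 against day 3 gave 0 calls, 1 scaled to reads outside the pair and 9 with no filter. Day 14 against day 7 gave 0 calls, 1 scaled to reads outside the pair, 6 with no filter and 1 with DESeq2, and 0 to 5 with 1 library left out. Scaled to reads outside the pair, the FK506 log2 change turned positive for miR-22-3p (0.054), miR-186-5p (0.31) and miR-140-3p (0.15), as did that of miR-186-5p with no filter (0.014). With 1 library left out the log2 changes were -0.50 to 0.63 for miR-191-5p, -1.27 to 0.22 for miR-423-5p, -0.44 to 0.40 for miR-186-5p and -0.65 to 0.076 for miR-140-3p. With the day term, a day left with 1 library holds no treatment difference, so leaving out either library of a day takes that day out of the estimate. The filter and TMM factors were redone in each fit, so fits without the same day can still differ. The sign turned without either day 7 library for miR-191-5p and without either day 14 library for miR-423-5p. For miR-186-5p and miR-140-3p it turned without either day 3 library, and for miR-140-3p also without untreated day 14. Why the days differ was not tested.

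Members past the size rule at day 3 numbered 3, all higher in FK506 serum, beside 32.3% of 99 miRNAs. With median-of-ratios factors 0 members passed, beside 28.3%. Scaled to the geometric mean of the members 1 passed, beside 29.3%. This was miR-186-5p, which was lower in FK506 serum and not among the 3. At day 7, 3 members passed, 2 higher and 1 lower, beside 65.9% of 129 miRNAs. Scaled to reads outside the pair 6 passed at day 7, all higher, beside 70.5%. Of all miRNAs 47 of 130 passed at day 14 (36.2%), and 87 of 130 scaled to the library total (66.9%, 84 higher, 3 lower). With a minimum of 20 reads 71 passed, out of a larger set of 174. With members as scalers, 29 of 99 passed at day 3 with all 8, and 49, 51, 53 and 46 with miR-423-5p, miR-423-3p, miR-484 and miR-186-5p alone. At day 14, 63 of 130 passed with all 8 and 112 with miR-423-5p alone. The median SD of the members as shares was 0.69, and 0.33 as a median absolute deviation, 0.64 with miR-181a-5p and miR-92a-3p also left out of the total and 0.51 to 0.77 with 1 library left out. After TMM scaling it was 0.59, 0.34 as a median absolute deviation and 0.56 to 0.59 with 1 library left out. The median M was 0.79, 0.73 without miR-423-3p and 0.71 to 0.83 with 1 library left out. As a share of the whole library total miR-191-5p had the lowest SD (0.55) and miR-22-3p the highest (0.86). Each lone comparison holds 1 library per group, and depth limits the members little: the scarcest value rests on 260 reads.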

Other observations

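Among the 72 miRNAs outside the pair with at least 50 reads in every library, the least variable as a share were miR-103-3p (SD of log2 0.28, 516 to 2406 reads), miR-26b-5p (0.31), miR-130a-3p (0.33), miR-181d-5p (0.33) and miR-15a-5p (0.38). After TMM scaling they were miR-15a-5p (0.21, 90 to 418 reads), miR-30d-5p (0.22, 1680 to 5091 reads), miR-186-5p (0.33), miR-1839-5p (0.34) and let-7g-5p (0.35). On both scales miR-15a-5p was among the first 5, and of the 8 members described above only miR-186-5p was among them, on the TMM scale. The comparison list of other proposed references held miR-103-3p and let-7g-5p of these. Places in these orders come from 6 libraries of 6 different groups and carry no test.

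Red cell lysis is often judged by miR-451a relative to miR-23a-3p. This ratio was 23.5, 13.7 and 26.4 with FK506 (days 3, 7 and 14) and 21.0, 43.6 and 14.5 without. The highest value, in untreated day 7 serum, rested on 12 reads of miR-23a-3p and had an exact 95% interval of 24.7 to 84.9. In the same library the shares of miR-191-5p, miR-22-3p, miR-186-5p, miR-140-3p and miR-484 were at their lowest. The summed share of the red cell miRNAs outside the pair was also lowest there, at 0.209%, and miR-451a had its fewest reads, 523. Whether lysis plays a part in the members' shares was not tested.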
